A study of Mus musculus with 13 samples.

Results

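RNA polymerase III (PolIII) peaks were compared between Hepa 1-6 cells carrying a control short hairpin RNA (control) and cells carrying one against KAP1 (Kap1 KD, named KAP1 shRNA in the plots). The members were all peaks of both deposited lists on chromosomes 5 to 19, namely 284 control and 337 Kap1 KD peaks, 621 of the 3203 PolIII peaks listed in all. Chromosomes 1 to 4, which hold 2480 control and 89 Kap1 KD peaks, serve only as a contrast, and chromosome X adds 13 peaks. A peak was called shared when it overlapped a peak of the other list by at least 1 bp.

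Hepa 1-6 is a murine hepatoma cell line, and chromatin immunoprecipitation followed by sequencing (ChIP-seq) lists the regions where chromatin bound by an antibody is enriched. Cells were fixed 5 days after transduction by one label, while another label of the same samples speaks of transfection with a plasmid, and the antibody was raised against the PolIII subunit RPC32. The control hairpin of the labels is an empty hairpin vector in the methods of the study. There was 1 library per condition, so no difference between conditions has a replicate error, no p-value is given, and every interval covers counting error only. KAP1 and the histone marks were profiled, again in 1 library each, in cells that by the methods were in standard culture without a hairpin, so no list shows KAP1 after the knockdown, and the degree of knockdown was not computed. Of 12 hepatocyte markers, 6 had an H3K27ac region at the promoter (Alb, Afp, Fgb, Hnf4a, Foxa2 and Foxa3) and 6 did not, Ttr and Apoa1 among them. None of 8 markers of blood, neurons or muscle had one, and 24.6% of all coding genes did. RNA polymerase II (PolII) was profiled in the cells with a hairpin. It was listed at 1 of the 12 hepatocyte markers in the control and at 2 under Kap1 KD. Over all coding genes its shares were 14.6% and 25.5%.

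PolIII transcribes short noncoding RNAs: the transfer RNAs (tRNAs), the 5S ribosomal RNA, U6 of the spliceosome, 7SK, the 7SL RNA of the signal recognition particle, the RNA parts of RNases P and MRP, Y and vault RNAs, and short interspersed repeats. At tRNA genes the promoter lies inside the gene, where TFIIIC binds the A box and the B box and brings in TFIIIB. At U6, 7SK, RNase P and MRP genes SNAPc binds upstream of the start. A run of T residues ends the transcript. KAP1, encoded by Trim28, is a corepressor that zinc finger proteins bring to DNA.

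The highest-scoring shared peak held 4 genes with the fold of a tRNA, which are shown because they carry the feature that most shared peaks had in common. Bases are given 5′ to 3′ on the transcribed strand of mm9, with the anticodon in capitals, followed in capitals by the 9 bases of the T loop that form the B box core. Annotated tRNA genes were not at hand on this build, so such tRNA-like genes were found by their sequence and stem pairing.

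Pro-CGG, chr11:68853887-68853957, plus strand: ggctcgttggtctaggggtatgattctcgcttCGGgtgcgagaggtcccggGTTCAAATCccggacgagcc
Asp-GTC, chr11:68854486-68854556, plus strand: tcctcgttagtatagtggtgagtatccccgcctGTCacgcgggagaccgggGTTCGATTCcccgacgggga
Gly-TCC, chr11:68854781-68854851, minus strand: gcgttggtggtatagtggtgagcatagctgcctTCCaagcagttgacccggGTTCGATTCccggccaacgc
Trp-CCA, chr11:68855328-68855398, plus strand: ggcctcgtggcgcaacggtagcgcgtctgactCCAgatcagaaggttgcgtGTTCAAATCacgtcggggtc

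The Asp and Gly genes match the B box motif fixed for the comparison, GTTCGANTC on either strand and the Pro and Trp genes do not, so the motif marks only some tRNA genes. Of the 156 tRNA-like genes called in both conditions, 74 carried it.

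The shared sites were mostly tRNA genes and the others mostly were not. Of the control peaks 147 of 284 (51.8%, 95% Wilson interval 46.0 to 57.5%) were found again under Kap1 KD, against 6.75% over all chromosomes. Of the Kap1 KD peaks 120 of 337 (35.6%, 30.7 to 40.9%) overlapped a control peak, against 37.1% over all chromosomes. The Kap1 KD list was 1.19 times as long as the control list. The shared peaks formed 120 regions, of which 101 paired 1 control peak with 1 Kap1 KD peak. In the other 19 regions, 46 control peaks lay under 19 Kap1 KD peaks, up to 4 control peaks under one. No control peak overlapped more than 1 Kap1 KD peak. No unshared peak lay within 1 kb of a peak of the other list.

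**Figure D1:**
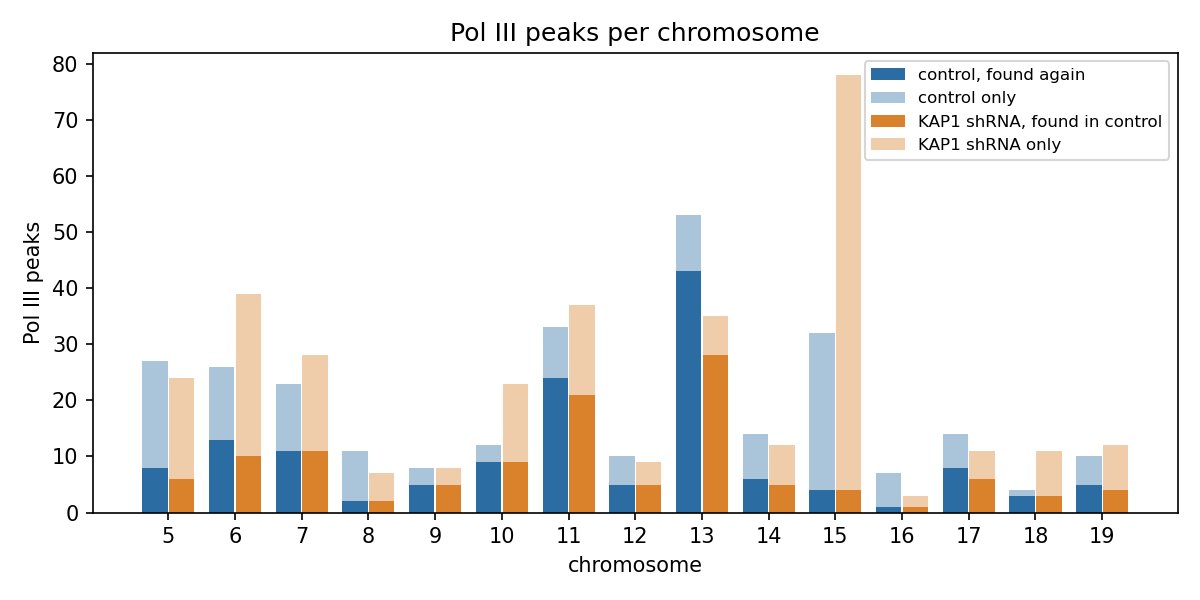
PolIII peaks on each of chromosomes 5 to 19, as stacked bars for the control list (blue) and the Kap1 KD list (orange), with peaks that overlap the other list in full colour and the others in pale colour. Chromosome 13 has the most shared peaks (43 control and 28 Kap1 KD), and chromosome 15 has the most unshared Kap1 KD peaks (74).

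Whether a peak was found again followed its score, a whole number deposited for each peak whose meaning the authors do not state. All 113 control peaks with a score of at least 50 were found again, and so were 12.7% (6.81 to 22.4%) of the 71 control peaks with a score of 19 or less. Under Kap1 KD, 59 of the 64 peaks with a score of at least 50 overlapped a control peak (92.2%, 83.0 to 96.6%), and 15.4% (9.39 to 24.2%) of the 91 peaks with a score of 16 or less. The median score was 110 for shared and 20 for unshared control peaks, and 46.5 and 19 under Kap1 KD. No unshared control peak scored above 48, and no unshared Kap1 KD peak above 82.

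The peaks of one list alone also differed in shape. Unshared Kap1 KD peaks were wide, with a median of 1820 bp and a maximum of 16413 bp, against 730 bp for shared Kap1 KD peaks. Unshared control peaks had a median width of 445 bp and shared ones of 495 bp. Among the 217 unshared Kap1 KD peaks the score rose closely with the width (Spearman's rho 0.96 across peaks, given as a description). The rho was 0.65 among the 120 shared Kap1 KD peaks, 0.73 among the 137 unshared control peaks and 0.68 among the 147 shared control peaks. The score per kb of peak had a median of 10.1 in unshared and 56.6 in shared Kap1 KD peaks, and of 44.8 and 201 in the control. Whether the scores are on the same scale in both lists is not known, so scores of the lists are set side by side and no change is read from them.

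**Figure D2:**
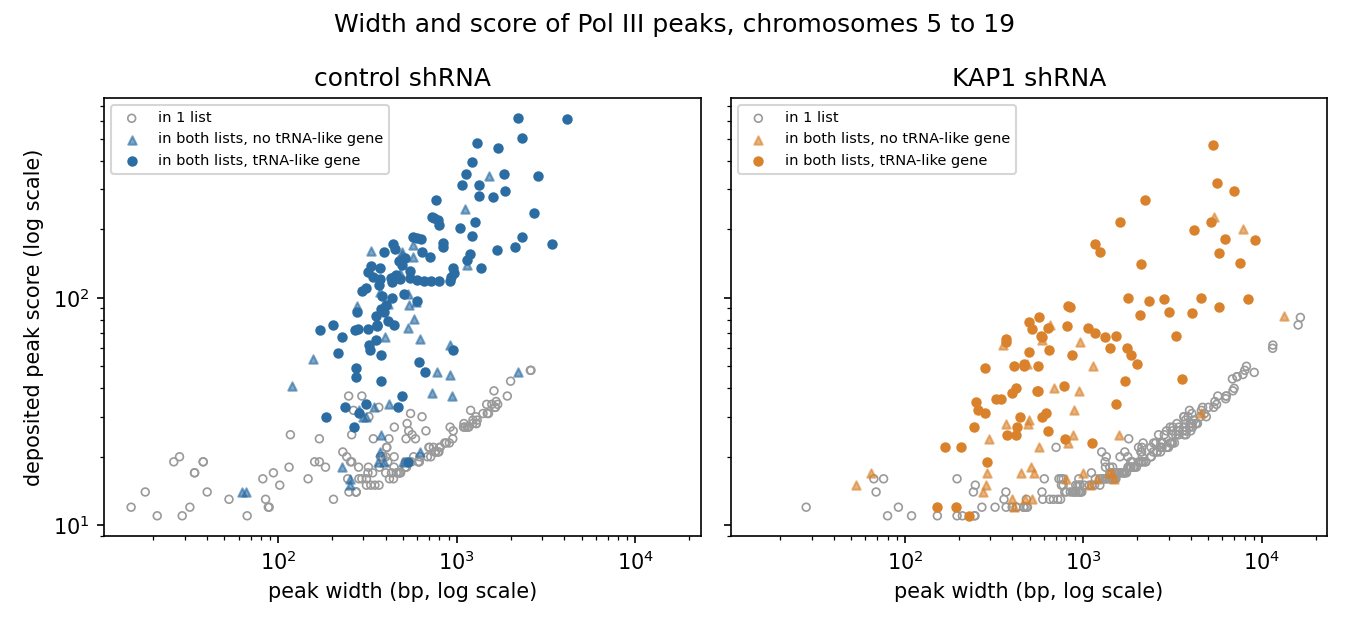
Width (bp, log scale) against deposited score (log scale) of each PolIII peak on chromosomes 5 to 19, with the control list on the left and the Kap1 KD list on the right. Open grey circles are peaks of 1 list, filled circles are shared peaks with a tRNA-like gene and triangles are shared peaks without one. Most grey circles lie in a narrow band in which score follows width, and most shared peaks lie above it.

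At the 101 sites with 1 peak of each list, the positions were close. The centres differed by a median of 134 bp, and by at most 100 bp in 34 of the 101 pairs. In most pairs the Kap1 KD centre lay at the lower coordinate, and the cause was not tested. The Kap1 KD peak was the wider in 55 pairs, with a median width ratio of 1.07. These sites leave out the 19 regions where a Kap1 KD peak spans several control peaks, so they do not show how widths compare over all shared peaks. The order of the scores was largely kept, with a rho of 0.88 over the 101 pairs, 0.87 over the 64 pairs with a tRNA-like gene and 0.71 over the 37 without. The listed Kap1 KD score was the lower number in 96 of 101 pairs, with medians of 104 and 36. Library depth is unknown here, and its part in this was not tested.

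**Figure D3:**
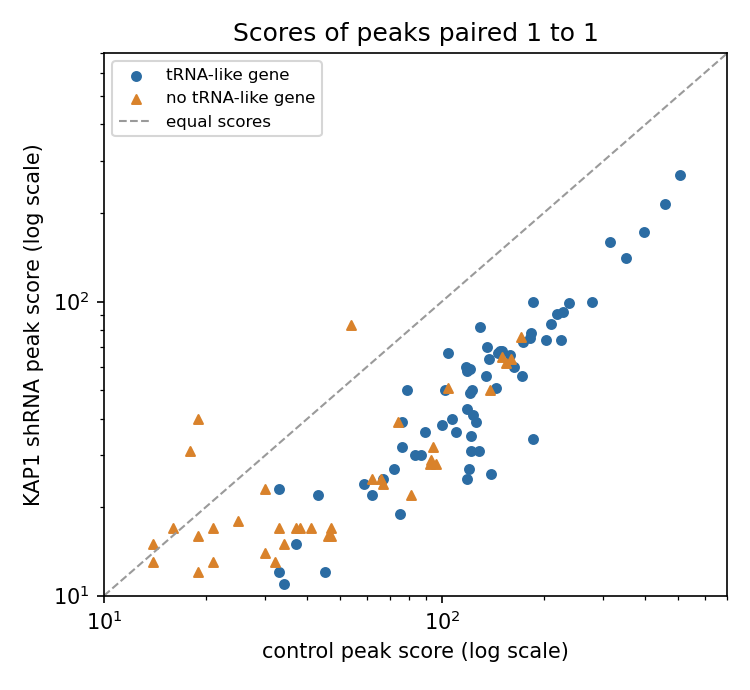
Control score against Kap1 KD score (both log scales) for the 101 sites with 1 peak of each list, as circles where a tRNA-like gene is present (64) and triangles where it is not (37). The dashed line marks equal numbers, although the scales may differ between the lists. Of the 101 points 96 lie below it, and the points rise together.

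tRNA genes were the main class of shared site, and nearly the same ones were called in both conditions. Of 277 tRNA-like genes on chromosomes 5 to 19, 165 lay in a control peak (59.6%, against 55.2% over all chromosomes) and 159 in a Kap1 KD peak (57.4%, against 51.6%). Of these, 156 were called in both, which is 94.5% (89.96 to 97.1%) of the control genes and 98.1% (94.6 to 99.4%) of the Kap1 KD genes. There were 9 genes called in the control alone, 3 under Kap1 KD alone and 109 in neither. This rests in part on wide Kap1 KD peaks, since 51 of the 156 genes lay in Kap1 KD peaks of over 5 kb. Without such peaks 63.6% of the control genes were found again. Of the 156 genes, 67.3% (59.6 to 74.2%) have an identical copy elsewhere, and how reads from such copies were placed is not given in the sources used here.

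Where a peak held a single tRNA-like gene, its centre lay near the gene and often beside it. The centre of the control peak was a median of 83.3 bp from that of the gene over 76 peaks, and 80.0 bp under Kap1 KD over 48 peaks. It was within 100 bp in 46 of the 76 control and 28 of the 48 Kap1 KD peaks. With the sign kept, the median offset was 53.75 bp in the control and 2.75 bp under Kap1 KD. The control centres thus lay more to 1 side. Further, 34 control and 33 Kap1 KD peaks covered several genes, with up to 6 and 7 genes in one peak. The second-highest shared control peak, of 4130 bp on chromosome 19 with a score of 615, covered 6 genes, for Phe, Lys, Leu, Arg and Val (the last with a pair of identical copies). A Kap1 KD peak of 6952 bp with a score of 294 lay over it. The other high shared peaks all lay in 1 group of genes on chromosome 11. They were 68853815 to 68856019 (score 619), 68936633 to 68938959 (506), 68850399 to 68851689 (479) and 68875737 to 68877448 (458). The first of these is nearest to Aurkb and the second overlaps Hes7. The peaks with scores of 619 and 479 were under a single Kap1 KD peak of 5291 bp with a score of 469, and the others had Kap1 KD peaks with scores of 269 and 215. All 5 overlapped KAP1 and H3K27ac.

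The called genes covered every amino acid that had a tRNA-like gene on these chromosomes. Genes were found for 19 amino acids, with none for His, whose genes lay on chromosomes 1 to 4. Of the 48 anticodons, 44 had a called gene in the control and the same 44 under Kap1 KD. The 4 without any, Ala-GGC, Gly-ACC, Val-GAC and a stop anticodon, had 1 gene each. Arg genes were called in both conditions in 19 of 21 cases, Pro genes in 10 of 12 and Leu genes in 16 of 19. Cys genes were called in 7 of 53 cases. Of these Cys genes, 44 lay in a group on chromosome 6 (48083936 to 48313602), where no gene was called in either condition and none overlapped a KAP1 peak. Outside this group, 156 of 233 genes (67.0%, 60.7 to 72.7%) were called in both.

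Called and uncalled genes alike lay mostly in groups of at least 5 genes less than 100 kb apart. There were 10 such groups with 189 of the 277 genes, and 102 of the 156 genes called in both conditions lay in them. All 7 genes of a group on chromosome 11 (48632044 to 48670557) and all 5 of a group on chromosome 5 (125884621 to 125889912) were called in both. In the other chromosome 11 group 16 of 18 genes were called in both, on chromosome 17 7 of 8, on chromosome 19 7 of 8 and on chromosome 14 6 of 7. The 3 groups of chromosome 13 were mixed, with 14 of 24, 16 of 31 and 24 of 37 genes called in both and 6, 12 and 11 in neither. KAP1 overlapped 20, 22 and 26 genes of these 3 groups.

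**Figure D4:**
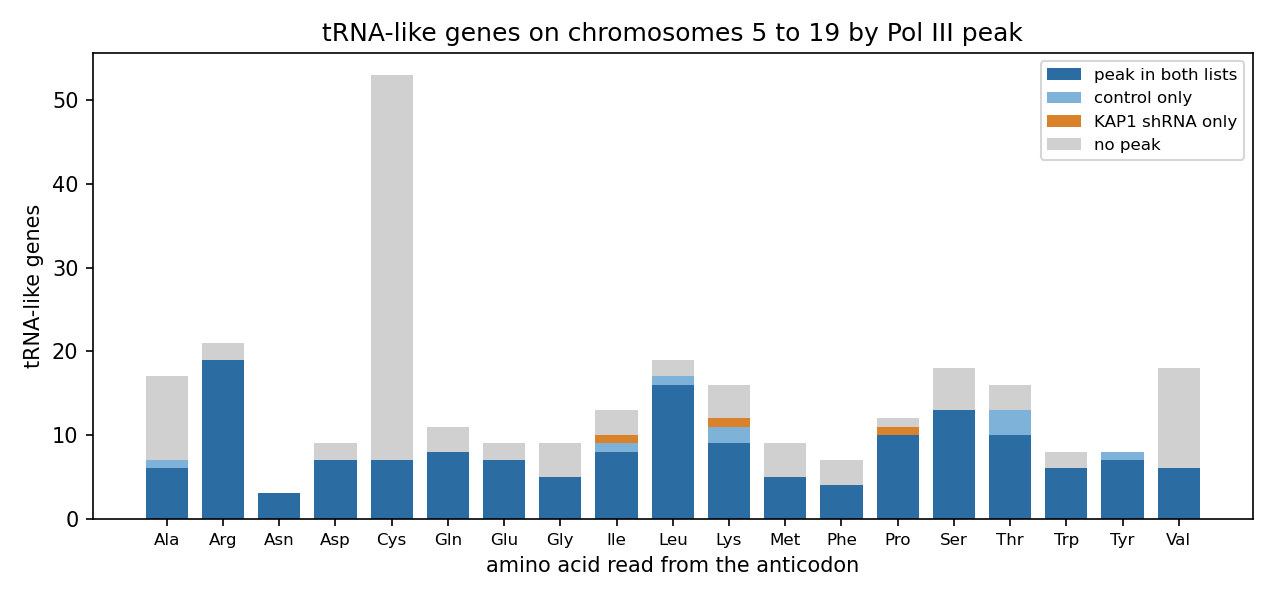
Number of tRNA-like genes on chromosomes 5 to 19 for each amino acid read from the anticodon, stacked by whether the gene lay in a peak of both lists, of the control list, of the Kap1 KD list or of neither. Genes called in 1 list are few (9 and 3 of 277), and Cys has the most uncalled genes, with 7 of 53 called in both.

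Called and uncalled genes differed in features the call did not use. A run of TTTT within 40 bases downstream, the PolIII terminator, was present at 154 of 156 genes called in both (98.7%, 95.4 to 99.6%) and at 77 of 109 uncalled genes (70.6%, 61.5 to 78.4%). Outside the Cys group, 2 of 27 genes without this run were called (7.41%, 2.06 to 23.4%), against 166 of 206 with it (80.6%, 74.6 to 85.4%). An H3K27ac region lay within 1 kb of 108 of the 156 genes called in both (69.2%, 61.6 to 75.9%) and of 7 of 109 uncalled genes (6.42%, 3.15 to 12.7%). It overlapped the gene itself in only 23 of the 156, so the acetylated regions lay mostly beside the genes. H3K9me3, the mark of silenced chromatin, was rare at both, with 0 of the 156 genes called in both and 1 of the 109 uncalled genes.

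KAP1 separated called from uncalled genes more closely than H3K27ac, H3K9me3 or PolII. All 156 genes called in both overlapped a KAP1 peak, as did 8 of the 9 control genes and 2 of the 3 Kap1 KD genes called alone, and 11 of 109 uncalled genes (10.1%, 5.73 to 17.2%). Conversely, 166 of the 177 genes with KAP1 were called in at least 1 condition (93.8%, 89.2 to 96.5%), and 2 of the 100 genes without it. Among the genes with KAP1 and a control peak, 156 were called in the cells with the hairpin against KAP1 and 8 were not.

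The genes called in 1 condition had low-scoring peaks, lay at the edge of a peak or lay in a wide Kap1 KD peak. Of the 12, 9 lay in 3 tRNA gene groups on chromosome 13. Those called in the control alone included Lys-CTT on chromosome 9, Ala-AGC, Thr-TGT, Thr-CGT, Lys-TTT, Thr-AGT and Tyr-GTA on chromosome 13, and Leu-TAG on chromosome 14. Those under Kap1 KD alone were Lys-TTT and Ile-AAT on chromosome 13 and Pro-TGG on chromosome 17. For 6 of the 9 control genes the peak itself was unshared, and 5 of these 6 genes, which no Kap1 KD peak touched, are shown.

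Lys-CTT, chr9:90021348-90021419, minus strand: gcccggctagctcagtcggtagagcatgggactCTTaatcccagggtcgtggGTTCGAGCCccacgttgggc
Thr-TGT, chr13:21367825-21367897, plus strand: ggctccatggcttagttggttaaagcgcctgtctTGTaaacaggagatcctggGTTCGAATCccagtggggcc
Thr-CGT, chr13:21414682-21414754, plus strand: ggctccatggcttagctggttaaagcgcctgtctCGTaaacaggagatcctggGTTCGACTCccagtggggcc
Lys-TTT, chr13:21999809-21999880, plus strand: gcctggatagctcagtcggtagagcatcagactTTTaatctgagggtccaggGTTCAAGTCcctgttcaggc
Leu-TAG, chr14:51702506-51702586, minus strand: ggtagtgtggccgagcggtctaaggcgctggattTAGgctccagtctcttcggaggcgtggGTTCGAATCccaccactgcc

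Their control peaks had scores of 37 for Lys-CTT, 25 for Thr-TGT, 19 for Thr-CGT, 37 for Lys-TTT and 24 for Leu-TAG, where the median of shared control peaks was 110. The peaks were between 248 and 417 bp wide. The nearest Kap1 KD peak was 3611 bp from Thr-TGT, 3742 bp from Thr-CGT, 5515 bp from Leu-TAG and 6673 bp from Lys-TTT. Kap1 KD peak numbers run in genome order, and no number was skipped around any of these 4 genes. Around Lys-CTT, where the nearest Kap1 KD peak was 11882095 bp away, 2 numbers were skipped. Of all 6 genes in unshared control peaks, 5 overlapped KAP1. Of the other control genes, Ala-AGC, Thr-AGT and Tyr-GTA lay in control peaks with scores of 37, 123 and 172. A Kap1 KD peak ended right before Ala-AGC, at a distance of 0 bp, and the nearest were 455 bp from Thr-AGT and 1463 bp from Tyr-GTA.

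Under Kap1 KD alone, a single peak was unshared. It covered Ile-AAT at 21973903 to 21973975 of chromosome 13, was 750 bp wide with a score of 16, and overlapped KAP1 and H3K27ac. This gene is 1 of 8 identical copies. The other genes, Lys-TTT and Pro-TGG, lay in Kap1 KD peaks of 5755 and 8399 bp that also covered genes called in both conditions, and the nearest control peaks were 314 and 1976 bp from them.

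Among the other PolIII gene families, the annotated genes called were nearly the same in both conditions and few of many annotated copies. Which of the copies are intact genes was not examined, so the counts are not shares of working genes. Of 227 annotated 7SK copies on chromosomes 5 to 19, 2 were called, both in each condition. The one on chromosome 9 (78023110 to 78023440), placed as Rn7sk by its neighbours Fbxo9 and Gsta4, had a score of 104 in the control and 51 under Kap1 KD. The other, on chromosome 15, had a control peak of 156 bp with a score of 54. A Kap1 KD peak of 13258 bp with a score of 83 ended inside the gene, which overlapped H3K9me3. For U6, 5 of 620 annotated copies were called in each condition and 4 of these in both. A pair of U6 genes on chromosome 12 shared 1 peak with scores of 139 and 50, and the U6 gene beside Med16 on chromosome 10 had scores of 74 and 39. The U6 gene at 79448251 to 79448357 of chromosome 10 was called in the control alone with a score of 18. The one at 68888517 to 68888617 of chromosome 11 lay in a Kap1 KD peak with a score of 17 and in no control peak. This Kap1 KD peak is a shared one, since it overlaps a control peak beside the gene with a score of 47 (68888750 to 68889523).

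The 7SL RNA genes carry no such name in the annotation and were placed by RefSeq neighbours on another build. The gene between Nemf and Arf6 (Rn7s2, chr12:70462172-70462468) had a score of 171 in the control and 76 under Kap1 KD. The gene between Rps29 and Lrr1 (Rn7s1, chr12:70260282-70260578) had 151 and 65. One of 15 Y RNA genes was called, the minus-strand gene between Ezh2 and Pdia4 that matches Rny1 in length, with scores of 93 and 29. The neighbouring Rny3 had a KAP1 peak and no PolIII peak in either condition. One of the 2 vault RNA genes was called, with scores of 155 and 62. All of these called genes overlapped KAP1.

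The RNA of RNase P, placed as Rpph1 by its neighbours Ccnb1ip1 and Parp2 (chr14:51427124-51427442, minus strand), was also called in the control and not under Kap1 KD, like the U6 gene on chromosome 10. Its control peak of 446 bp had a score of 20 and overlapped KAP1. None of the 8 other annotated RNase P genes, 95 5S ribosomal RNA genes, 17 U6atac genes or the RNase MRP gene on these chromosomes was called in either condition. The RNase MRP gene placed as Rmrp lies on chromosome 4, where it was called in both conditions with scores of 117 and 57. BC1 could not be placed in this annotation.

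Of the 147 shared control peaks, 43 held no tRNA-like gene. The highest of them was in a group of 6 control peaks at 128709980 to 128793710 of chromosome 6, with Klrb1c and BC035044 as the nearest coding genes. Their scores were 344, 247, 159, 128, 62 and 15, and none overlapped an annotated gene. All 6 overlapped KAP1 and were overlapped by 3 Kap1 KD peaks, with scores of 226, 200 and 25 and widths of 5411, 7878 and 874 bp. Another Kap1 KD peak between them, with a score of 14, had no control counterpart. Another site without an annotated gene, 0.484 kb from Ppp6r3 on chromosome 19 (3576234 to 3576566), had scores of 160 and 64.

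Others held a short interspersed repeat of the B2 family, which descends from a tRNA gene. It was searched as GATGGCTCA followed after 15 to 60 bases by GTTCAANTC, on either strand, a rule chosen after the sequences of these peaks were seen. The repeats of the highest-scoring shared peaks with it and of 1 control peak without a Kap1 KD peak are shown, with the searched letters in capitals.

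Shared, score 96, chr13:58560237-58560313, minus strand: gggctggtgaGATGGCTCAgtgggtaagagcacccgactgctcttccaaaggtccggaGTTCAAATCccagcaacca
Shared, score 66, chr17:71146720-71146795, minus strand: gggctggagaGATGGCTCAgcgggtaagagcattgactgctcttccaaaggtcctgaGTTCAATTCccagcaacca
Control alone, score 31, chr11:101289316-101289392, plus strand: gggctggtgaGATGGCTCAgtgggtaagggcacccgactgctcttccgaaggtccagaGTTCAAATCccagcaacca

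Since the rule was drawn from these peaks, the following shares are a description and test nothing. These letters occurred in 10 of the 43 shared control peaks without a tRNA-like gene (23.3%, 13.2 to 37.7%), and in 1.05% of all windows of their median width (480 bp) on these chromosomes. Among unshared control peaks they occurred in 11 of 37 with KAP1 (29.7%, 17.5 to 45.8%) and in 1 of 100 without it (1%, 0.177 to 5.45%). Windows of 341 bp, the median width of the former, held them in 0.710% of cases. The B1 repeat, searched as GTTCGAGGC, was in 9 of the 37 (24.3%, 13.4 to 40.1%) and in 0.951% of windows. In unshared Kap1 KD peaks the B2 letters occurred in 13 of 217 (5.99%, 3.53 to 9.98%), where 4.12% of windows of 1820 bp held them.

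What lay at the peaks differed between the classes. KAP1 overlapped 117 of the 120 shared regions (97.5%, 92.9 to 99.1%), 37 of the 137 unshared control peaks (27.01%, 20.3 to 35.0%) and 8 of the 217 unshared Kap1 KD peaks (3.69%, 1.88 to 7.10%). Windows of the median widths of these classes overlapped KAP1 in 1.13%, 0.904% and 1.59% of cases, so the lowest of these shares was still above that of windows. A tRNA-like gene was in 81 shared regions (67.5%, 58.7 to 75.2%), in 6 unshared control peaks (4.38%, 2.02 to 9.23%) and in 1 unshared Kap1 KD peak (0.461%, 0.0814 to 2.56%). The B box motif was in 50 shared regions (41.7%, 33.2 to 50.6%), in 3 unshared control peaks (2.19%, 0.747 to 6.24%) and in none of the unshared Kap1 KD peaks, for which a count of 0 allows up to 1.74%. It occurs in 0.426%, 0.212% and 0.867% of windows of the median widths of these classes, so a count of 0 among the unshared Kap1 KD peaks is near the share of windows. Without Kap1 KD peaks of over 5 kb, more control peaks counted as unshared, 170 in all, of which 41.2% overlapped KAP1, 19.4% held a tRNA-like gene and 11.8% the B box motif. Among peaks at or above the median score of their list, 18 of 30 unshared control peaks overlapped KAP1 and 3 of 30 held the motif.

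Histone marks of active regions were ordered in the same way, and H3K9me3 was more frequent at unshared peaks of both lists. H3K27ac, a mark of active promoters and enhancers, overlapped 57.5% of the shared regions (48.6 to 66.0%), 18.2% of the unshared control peaks (12.7 to 25.6%) and 6.91% of the unshared Kap1 KD peaks (4.23 to 11.1%). Windows of the median widths of these classes overlapped H3K27ac in 3.53%, 2.92% and 4.61% of cases, so the share of the unshared Kap1 KD peaks was near that of windows. H3K4me1, found at enhancers, overlapped 55.0%, 33.6% and 26.7%, and windows in 5.12%, 4.12% and 6.84%. Among unshared Kap1 KD peaks H3K4me1 was at 47.3% (36.3 to 58.5%) on chromosome 15 and 16.1% (10.96 to 23.0%) elsewhere. Among unshared control peaks it was at 42.9% on chromosome 15 and 31.2% elsewhere. The unshared Kap1 KD peaks had median widths of 2733.5 bp on chromosome 15 and 1509 bp elsewhere. No window share was computed for chromosome 15 alone. H3K9me3 overlapped 4 of 120 shared regions (3.33%, 1.30 to 8.26%), 50 of 137 unshared control peaks (36.5%, 28.9 to 44.8%) and 72 of 217 unshared Kap1 KD peaks (33.2%, 27.3 to 39.7%). Windows of the median widths of these 3 classes overlapped H3K9me3 in 3.69%, 2.78% and 5.26% of cases. When the mark had to cover the centre, H3K27ac was at 21.7% of the shared regions, 15.3% of the unshared control peaks and 2.76% of the unshared Kap1 KD peaks. H3K9me3 was then at 0.833% of the shared regions, 25.5% of the unshared control peaks and 13.4% of the unshared Kap1 KD peaks.

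**Figure D5:**
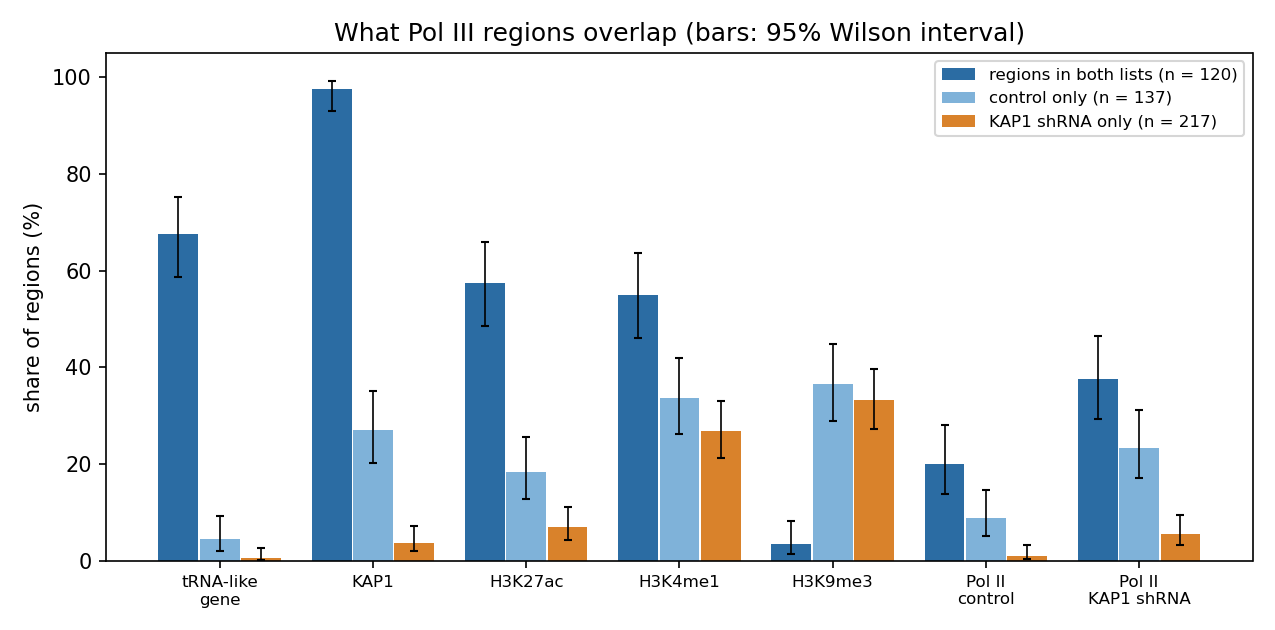
Share of regions (%) that overlap a tRNA-like gene, KAP1, 3 histone marks or PolII, for the 120 shared regions, the 137 control peaks and the 217 Kap1 KD peaks without a counterpart. Bars give the share and lines its 95% Wilson interval. KAP1 falls from 97.5% to 27.01% and 3.69%, and H3K9me3 is at 3.33%, 36.5% and 33.2%.

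The unshared control peaks fell into separate kinds by KAP1. The 37 with KAP1 were narrow (median 341 bp, none over 918 bp), overlapped H3K27ac in 56.8% of cases (40.9 to 71.3%) and H3K9me3 in none, and lay within 1 kb of a coding start in 24.3%. They include 5 of the tRNA-like genes above, Rpph1, the U6 gene on chromosome 10, and repeats in or near genes such as Rundc1, Pfas, Rpa1 and Alkbh4. The 100 without KAP1 overlapped H3K27ac in 4% (1.57 to 9.84%) and H3K9me3 in 50.0% (40.4 to 59.6%), and lay within 1 kb of a coding start in 1%. Windows of 341 bp, the median width of the 37, overlapped H3K27ac in 2.74% and H3K9me3 in 2.54% of cases. Window shares for the width of the 100, and for coding starts, were not computed. The score followed the width in the 100 without KAP1 (rho 0.89) more than in the 37 with it (0.39).

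By score, the first 4 unshared control peaks were of the second kind. They were 1616 to 2605 bp wide, overlapped H3K9me3 and lacked KAP1. The first, with a score of 48, overlapped the noncoding gene Pvt1 on chromosome 15 (62103867 to 62106448). The second, also of 48, lay 69.1 kb from Cyp3a41b on chromosome 5. The third, of 43, lay 46.9 kb from Lmcd1 on chromosome 6 and the fourth, of 39, lay 13.97 kb from Vmn2r51 on chromosome 7. The Kap1 KD numbering skipped 2 to 17 numbers around each of these 4. The next score, 37, was shared by 3 peaks, those of Lys-TTT on chromosome 13 and Lys-CTT on chromosome 9 given above and one without KAP1 on chromosome 7 (39211412 to 39213330).

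The unshared Kap1 KD peaks were wide and for the most part without KAP1. The median distance from a coding start was 28.9 kb, against 7.90 kb for shared regions and 22.2 kb for unshared control peaks, and it was 52.0 kb on chromosome 15 and 19.6 kb elsewhere. Chromosome 15 held 74 of the 217 (34.1%), although it makes up 5.82% of the length of chromosomes 5 to 19, and it also held 28 of the 137 unshared control peaks (20.4%). Of the 21 unshared Kap1 KD peaks over 5 kb, 14 were on chromosome 15. Of the 5 highest by score, 4 lay there, at 62537406 to 62553818 (score 82), 90719473 to 90735418 (76), 66122805 to 66134319 (62) and 93835286 to 93843475 (50). The other, on chromosome 7 (66691717 to 66703193, score 60), covered 6 of the 137 annotated SNORD115 genes, a repeated array of small nucleolar RNA genes, and overlapped H3K9me3. None of these 5 held KAP1 or a tRNA-like gene.

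Outside chromosome 15, the 143 unshared Kap1 KD peaks overlapped KAP1 in 4.90% of cases and H3K9me3 in 35.0%. Of 186 unshared Kap1 KD peaks with a control peak on either side, 149 lay where the control numbering skipped numbers. So did 72 of 118 unshared control peaks in the Kap1 KD numbering. The share of all positions on these chromosomes where numbers are skipped was not computed, so these counts have no baseline. Over all chromosomes, those of the contrast included, 30.4% of the control numbers and 55.0% of the Kap1 KD numbers were missing from the lists. What a missing number stands for is not given in the sources used here.

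KAP1 scores were high where KAP1 met PolIII. Of the 8784 KAP1 peaks on these chromosomes, 190 overlapped a PolIII peak of either list (2.16%, 1.88 to 2.49%). Of the 120 KAP1 peaks there with the tied score of 3100, 84 did so. At shared control peaks with KAP1 the KAP1 score had a median of 3100, and at unshared ones 483, against 102 over all KAP1 peaks. The centres of both peaks lay a median of 86.5 bp apart at shared and 99.0 bp apart at unshared control peaks. KAP1 and control PolIII scores rose together over the 181 control peaks with KAP1 (rho 0.81, a description). The rho was 0.75 over the 144 shared and 0.34 over the 37 unshared control peaks with KAP1. The 181 peaks share 1 library for each antibody.

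PolII was listed at more of the shared regions under Kap1 KD, 45 of 120 (37.5%, 29.4 to 46.4%), than in the control, 24 of 120 (20%, 13.8 to 28.0%). The Kap1 KD PolII list is itself 2.54 times as long on these chromosomes (9333 and 3673 peaks), and what part of the difference is due to this was not tested. Unshared control PolIII peaks overlapped control PolII in 8.76% (5.08 to 14.7%) and Kap1 KD PolII in 23.4% of cases (17.1 to 31.1%). Unshared Kap1 KD PolIII peaks did so in 0.922% (0.253 to 3.30%) and 5.53% (3.19 to 9.42%). Windows of the median widths of the shared, unshared control and unshared Kap1 KD peaks overlapped control PolII in 0.536%, 0.440% and 0.729% of cases and Kap1 KD PolII in 1.25%, 1.01% and 1.72%. The control PolII share of the unshared Kap1 KD peaks was near that of windows.

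Of the genes of the PolIII machinery, 29 were examined within 250 bp of a coding start on all chromosomes. PolII was listed at 13 in the control and at 19 under Kap1 KD, 12 of them in both, and over all coding genes at 14.6% and 25.5%. The enzyme's subunits had PolII at 5 and 9 of 11 genes, TFIIIC at 4 and 4 of 6, SNAPc at 3 and 3 of 5, and TFIIIB at none and 1 of 4. The 7 genes listed under Kap1 KD alone were Polr3a, which encodes the largest subunit, Polr3c, Polr3f, Polr3k, Bdp1, Snapc1 and Ssb. Snapc2 was the only gene listed in the control alone. Maf1, a repressor of PolIII, had no PolII in either condition, and neither had Polr3g and Polr3gl, which encode the forms of RPC32. Promoters of 9 of the 29 had KAP1 and 14 had H3K27ac, where 17.3% and 24.6% of all coding genes had them.

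Polr3e, which encodes a subunit of the enzyme, was the one machinery gene with PolIII within 250 bp of its start, where a tRNA-like gene also lies. This gene, Leu-AAG at 128061031 to 128061111 of chromosome 7, is 0.187 kb from the start of Polr3e, is inside the PolIII peaks of both conditions and is counted among the tRNA-like genes above. PolIII at the one and at the other cannot be told apart. The control peak at 128060968 to 128063284 of chromosome 7 had a score of 186. The Kap1 KD peak at 128060815 to 128062338 had a score of 34 and overlapped it. Both cover the start of the gene at 128061258, and both overlap KAP1.

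On chromosomes 1 to 4 the lists differed in another way. Of the 2480 control peaks there 39 were found again (1.57%, 1.15 to 2.14%), and of the 89 Kap1 KD peaks 39 overlapped a control peak (43.8%, 34.0 to 54.2%). Of the 86 tRNA-like genes on these chromosomes, 45 were called in the control and 37 under Kap1 KD, 35 of them in both. All the tRNA-like genes found at 172994296 to 173012076 of chromosome 1 overlapped KAP1 and H3K9me3 and were called in neither condition. The number of control peaks per 10 Mb was 68.1 on chromosome 1, 40.7 on chromosome 2, 19.5 on chromosome 3 and 5.59 on chromosome 4, and between 0.441 and 4.41 on chromosomes 5 to 19. In the Kap1 KD list chromosomes 1 to 4 had 1.03 to 1.43 peaks per 10 Mb.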

How the data were processed

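PolIII, PolII, KAP1 and histone mark ChIP-seq lists of Hepa 1-6 cells were used, with 1 library per group. Per the submitters' notes reads were mapped with Bowtie to mm9. MACS was the authors' program for KAP1 and PolII, and ChIP-Part that for histone marks. The program for PolIII and its options are not given in the sources used here. The deposited PolIII, PolII and KAP1 lists give positions and a score per peak, and the histone lists give positions only. No read counts are held in these lists, so depth is unknown and no scaling was possible.

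Overlaps, medians, Spearman's rho and 95% Wilson intervals were computed in Python 3.11.15 (statsmodels 0.14.6, pysam 0.24.0), with no test between conditions. tRNA-like genes were sought in mm9 by a T loop, T at position 8, GG in the D loop and a stem score. The score counted paired stem positions, up to 21, was lowered for an intron or a long variable arm, and had to be at least 17. Of 382 found, 350 matched a RefSeq tRNA (GRCm38.p6) by chromosome and anticodon. The code was tested on simulated data. Gene names are from GENCODE M1. The sites named by rule were the 5 highest-scoring shared control peaks, the 5 highest unshared peaks of each list (over 1 kb from the other list), and each called gene of the PolIII gene list. The highest chromosome 6 group, the repeats and the tRNA genes of 1 list were chosen after their values were seen. Members and lists were chosen with earlier results of these data known. Input samples were not analysed here, and 1 tRNA-like gene is not reported by name.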

Additional observations from a re-analysis of the deposited data

How the results depend on the processing

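No replicate could be left out, because each condition has 1 library, and no paired analysis was possible because no result comes from a test. Of 86 alternatives to 20 results, 58 stayed within the 95% interval of the reported value (the ratio within 1.5 times) and 1 turned the direction, with the Kap1 KD list 0.154 times as long as the control list on chromosomes 1 to 19. There 6.73% of control peaks were found again. Without chromosome 15, 44.8% of Kap1 KD peaks were shared. With peaks at or above the median score of each list, found again were 79.0% of control and 53.5% of Kap1 KD peaks. KAP1 was then at 100% of shared regions, 60% of unshared control and 7.59% of unshared Kap1 KD peaks, the B box at 51.6% of shared and 10.0% of unshared control, H3K9me3 at 1.10% of shared and 51.9% of unshared Kap1 KD, and H3K27ac at 11.4% of unshared Kap1 KD. With peaks of at most 5 kb, 40.1% of control peaks and 63.6% of control tRNA genes were found again. Unshared control peaks then had KAP1 in 41.2%, a tRNA-like gene in 19.4% and the B box in 11.8%. Covering the centre, KAP1 was at 86.7% of shared and 1.84% of unshared Kap1 KD, H3K27ac at 21.7% of shared and 2.76% of unshared Kap1 KD, and H3K9me3 at 0.833% of shared, 25.5% of unshared control and 13.4% of unshared Kap1 KD. The B box was within 250 bp of the centre in 24.2% of shared regions. With a stem score of at least 20 a tRNA-like gene was in 55.8% of shared regions. Genes with an intron cannot reach that score, and a long variable arm lowers it. Without chromosome 13, 98.1% of control tRNA genes were found again. The alternatives on tRNA-like genes were chosen after seeing the data. The cause of these shifts was not tested.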
